A study of Rattus norvegicus with 4 samples.

Results

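Caspases were represented by 6 of the 1936 features of a spotted rat cDNA array. They were taken as every feature that carried a single gene symbol beginning with Casp and a digit, and each was described on its own. The inflammatory class held 1 feature of Casp1 and 2 features of Casp4, and the apoptotic class held 2 features of Casp2 and 1 feature of Casp6. No feature carried the symbol of Casp12, the other inflammatory caspase of the rule, so it was not analysed here. All 6 caspase features matched a gene of the rat RefSeq table by gene ID.

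The arrays compared livers of male Sprague-Dawley rats that received α-naphthylisothiocyanate (ANIT), a toxicant of the bile duct epithelium used to model cholestasis, with livers of rats that received its vehicle alone. ANIT was injected intraperitoneally at 75 mg/kg in olive oil, control rats received the same volume of olive oil, and the right lateral liver lobe was taken 24 h later from 3 rats per condition. The age of the rats was not given in the labels used here. Since RNA of the 3 livers per condition was combined before labelling, each condition was 1 RNA pool of liver lobe tissue, and the 4 arrays were taken as technical repeats of the same pair of pools. The dyes were swapped between arrays: ANIT RNA carried Cy5 on arrays 1 and 3, called the Cy5 arrays here, and Cy3 on arrays 2 and 4, called the Cy3 arrays.

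Caspases are cysteine proteases that are made as inactive precursors and cut their substrates after aspartate. In apoptosis, initiator caspases are activated on adaptor platforms and executioner caspases dismantle the cell, whereas inflammatory caspases mature interleukins or open membrane pores through gasdermin D. In the liver, hepatocytes, cholangiocytes, Kupffer cells and infiltrating leukocytes can all express caspases, and transcript ratios do not measure protease activity.

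Ratios are given as log2 of the ANIT pool over the olive oil pool, with the SD over the 4 hybridisations. The log base and the direction of the deposited ratios were not stated in the sources used here. Log2 is a reading of the values, and the direction is likely rather than known, resting on the labels' order of channels. With 1 pool per condition no treatment test was possible, so calls were made by size, for features whose 4 arrays shared a sign and averaged a log2 ratio of at least 1 in size (2-fold). By this rule 74 of the 1936 features (3.82%) were called, of which 59 (3.05%) were lower and 15 (0.775%) higher in the ANIT pool. Fewer cells of a type and less RNA per cell cannot be told apart in such a tissue. Spot intensities were not at hand, so neither the expression level of any caspase nor the liver identity of the tissue could be read from levels of markers.

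Of the caspases, 1 feature of Casp4 was lower in the ANIT pool and the other 5 features did not reach 2-fold. The called share of 1 in 6 features rests on a single feature, against the 3.82% of all features. Casp4 (called Casp11 in older rodent nomenclature) encodes the inflammatory caspase that in mouse senses lipopolysaccharide inside the cell and cleaves gasdermin D. On Casp4 feature 1419 the log2 ratio was -1.72 and -2.11 on the Cy5 arrays, and -1.65 and -1.56 on the Cy3 arrays. All 4 arrays were therefore below -1, in both dye orientations. The mean was -1.76 ± 0.24 (SD, n = 4 hybridisations), or 3.38-fold lower in the ANIT pool (5.80-fold if the values are natural logarithms). It was the lowest caspase value on every array and ranked 18 from the lowest of the 1936 features by its mean. On single arrays it ranked 102, 19, 19 and 21 from the lowest on arrays 1 to 4. If the ratios run the other way, the same ranks count from the highest. On each array the next caspase feature was a Casp2 feature, higher by 0.99, 1.09, 1.18 and 1.29 on the log2 scale.

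**Figure D1:**
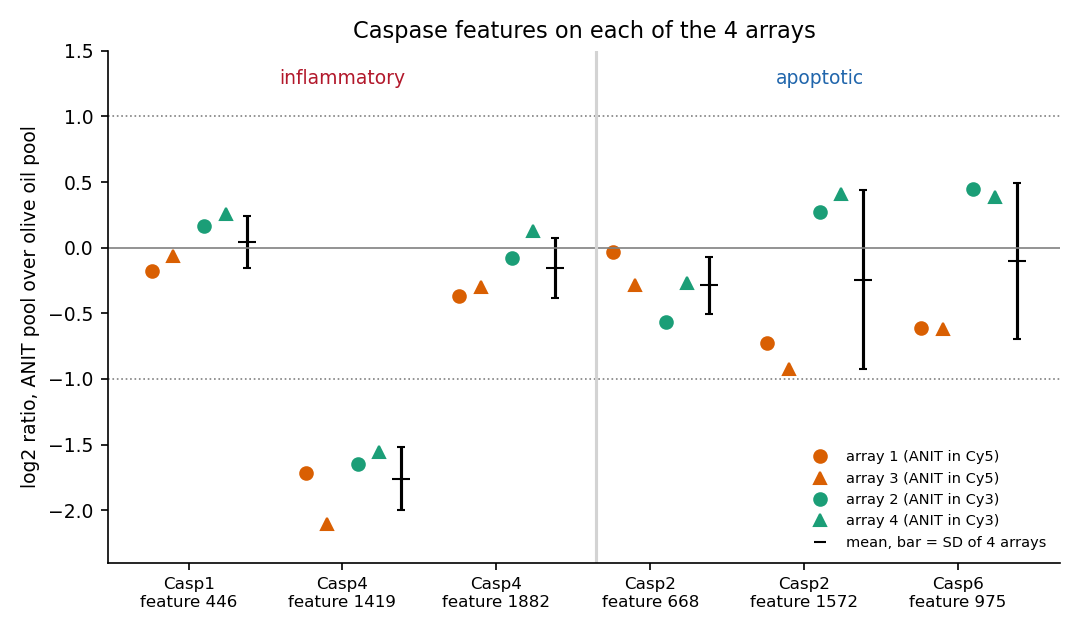
Log2 ratio of the ANIT pool over the olive oil pool (vertical axis) for each of the 6 caspase features (horizontal axis), with 1 point per array, coloured by the dye of the ANIT pool; the black mark is the mean and its bar the SD of 4 arrays. Dotted lines mark 2-fold. Casp4 feature 1419 lies between -2.11 and -1.56, and the other 5 features lie between -0.93 and 0.45.

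The second feature of Casp4, feature 1882, did not show this difference. Its log2 ratio was -0.37 and -0.30 on the Cy5 arrays, and -0.08 and 0.13 on the Cy3 arrays, with a mean of -0.15 ± 0.23. The values of the 2 Casp4 features did not overlap. Feature 1419 minus feature 1882 was -1.35, -1.57, -1.81 and -1.69 log2 units on arrays 1 to 4, a mean difference of -1.60 ± 0.20. Averaged over both features, Casp4 had a log2 ratio of -0.96 ± 0.21, just short of the 2-fold limit. The features carry different cDNA clones assigned to Casp4, whose sequences were not used here, and which parts of the transcript they cover is not known from the files.

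Such a gap was uncommon on these arrays. Among the 261 genes that had exactly 2 features, the median difference between the features was 0.17 log2 units and the 90th percentile 0.62, and Casp4 had the fifth largest difference. At least 1 feature was called by the rule for 22 of these genes. For 12 of them both features were called, with differences between 0.0036 and 0.74, while for 10, Casp4 among them, only 1 feature was called. The differences larger than that of Casp4 belonged to Car2, Wt1, Hao2 and Slco1a4.

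**Figure D2:**
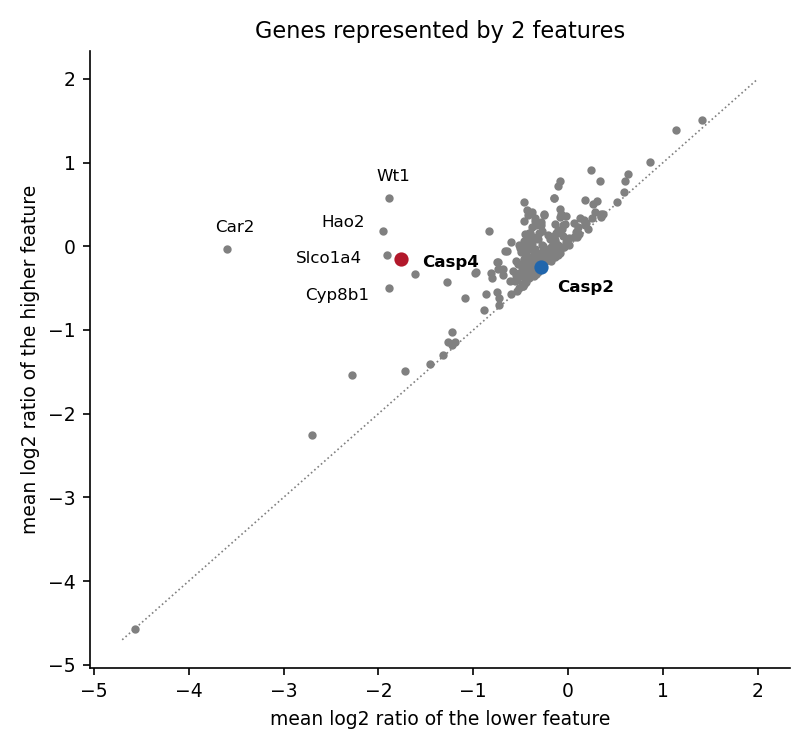
Mean log2 ratio over 4 arrays of the lower feature (horizontal axis) against the higher feature (vertical axis) of each of the 261 genes with 2 features; the dotted diagonal marks equal values. Casp4 (red) lies at -1.76 and -0.15, far from the diagonal, and Casp2 (blue) lies on it at -0.29 and -0.24.

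Casp1, the protease of inflammasomes that matures interleukin 1 beta and interleukin 18, had nearly equal signal in both pools on its feature 446. Its log2 ratio was -0.18 and -0.06 on the Cy5 arrays, and 0.17 and 0.26 on the Cy3 arrays. The sign followed the dye orientation. The mean of 0.05 ± 0.20 was smaller than its SD, which includes the difference between orientations. This mean was the only caspase mean above 0. It was higher than the means of 80.8% of all features, whose median was -0.25. With olive oil over ANIT this share would be 19.2%.

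Both features of Casp2, an initiator caspase activated on the PIDD1 platform, had similar means but different patterns over the arrays. Casp2 feature 668 had a log2 ratio of -0.03 and -0.28 on the Cy5 arrays, and -0.56 and -0.27 on the Cy3 arrays. All 4 values were below 0, as for 17.6% of all features, and the mean was -0.29 ± 0.22. Casp2 feature 1572 stood at -0.73 and -0.93 on the Cy5 arrays, and at 0.27 and 0.41 on the Cy3 arrays. Its orientations lay on opposite sides of 0. Its mean of -0.24 ± 0.68 was well within the SD, which includes this swing and so does not measure the uncertainty of the mean. The 2 Casp2 means differed by 0.04, and 19.2% of the genes with 2 features had a smaller difference. On single arrays, feature 668 minus feature 1572 was 0.70 and 0.64 on the Cy5 arrays, and -0.83 and -0.68 on the Cy3 arrays.

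Casp6, an executioner caspase that cleaves nuclear lamin A, was represented by feature 975. Its log2 ratio was -0.61 and -0.62 on the Cy5 arrays, and 0.45 and 0.38 on the Cy3 arrays. The arrays of each orientation were within 0.1 of each other while the orientations had opposite signs. The mean was -0.10 ± 0.59, again within an SD that includes the swing between orientations.

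The dye contrast, which is 0.5 times the difference between the mean of the Cy5 arrays and that of the Cy3 arrays, gives the part of a ratio that followed the dye (log2 of Cy5 over Cy3). It was -0.58 for Casp2 feature 1572 and -0.51 for Casp6, against a median of -0.40 over all features. It was smaller in size for Casp1 (-0.17), for the Casp4 features 1419 (-0.15) and 1882 (-0.18), and for Casp2 feature 668 (0.13), the only caspase with a contrast toward Cy5. Both Casp4 features thus had nearly the same dye contrast although their mean ratios differed by 1.60. In all, 3 of the 6 caspase features, those of Casp1, Casp6 and Casp2 feature 1572, had opposite signs in the 2 orientations, as did 56.4% of all features. The median of all features was -0.68 and -0.64 on the Cy5 arrays, and 0.31 and 0.35 on the Cy3 arrays.

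**Figure D3:**
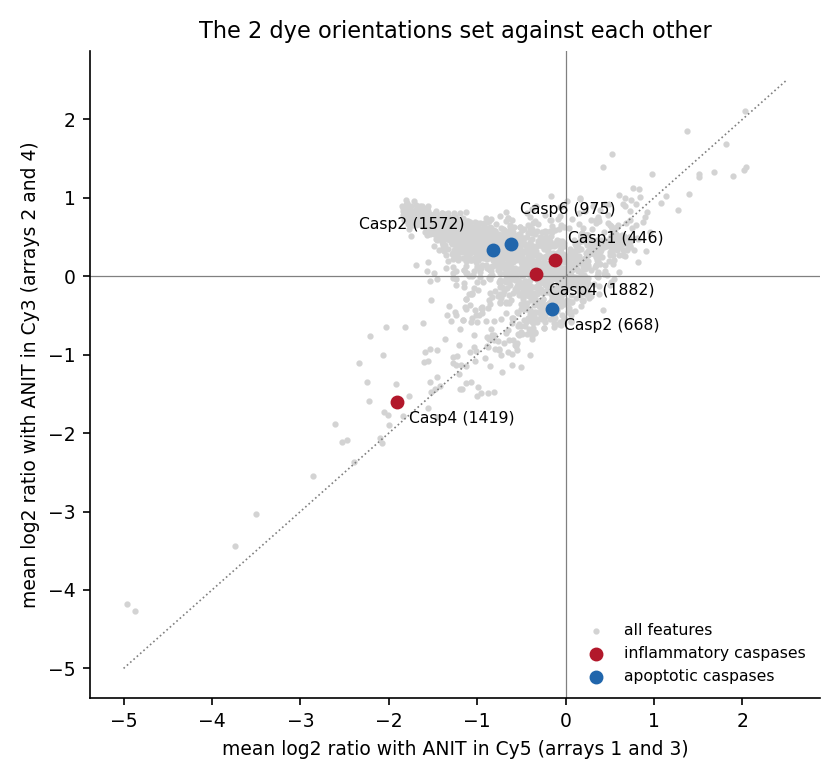
Mean log2 ratio of the Cy5 arrays (horizontal axis) against the Cy3 arrays (vertical axis) for all 1936 features (grey) and the inflammatory (red) and apoptotic (blue) caspase features; the dotted diagonal marks equal ratios in both orientations. Casp4 feature 1419 lies near the diagonal at -1.91 and -1.61, whereas Casp6 (-0.61 and 0.42) and Casp2 feature 1572 (-0.83 and 0.34) lie in the upper left.

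When each array was set to a median of 0, Casp6 and Casp2 feature 1572 followed the array medians closely. Centred values of Casp6 were 0.07 and 0.03 on the Cy5 arrays, and 0.13 and 0.04 on the Cy3 arrays, with a mean of 0.07 ± 0.05. Casp2 feature 1572 had a centred mean of -0.08 ± 0.15. For Casp1 the centred values were 0.50 and 0.58 on the Cy5 arrays, and -0.15 and -0.09 on the Cy3 arrays, so that the orientations took opposite signs here as well, in the reverse order. Casp2 feature 668, below 0 on all arrays as deposited, also split by orientation once centred. It stood at 0.65 and 0.36 on the Cy5 arrays, and at -0.88 and -0.62 on the Cy3 arrays (mean -0.12 ± 0.74). Casp4 feature 1882 stood at 0.31 and 0.34 on the Cy5 arrays, and at -0.39 and -0.21 on the Cy3 arrays (mean 0.01 ± 0.37). Casp4 feature 1419 stayed below -1 on every centred array (-1.04 and -1.46 on the Cy5 arrays, -1.96 and -1.90 on the Cy3 arrays), with a mean of -1.59 ± 0.43.

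In order of the mean ratio, the features ran Casp1, Casp6, Casp4 feature 1882, Casp2 feature 1572, Casp2 feature 668 and Casp4 feature 1419. The first 5 spanned 0.33 log2 units with SDs between 0.20 and 0.68, and no neighbours among them differed by more than 0.14. These SDs include the swing between dye orientations and do not settle the order, since the features share the arrays. Casp1, for one, lay above Casp4 feature 1882 on each of the 4 arrays. The gap of 1.47 between Casp2 feature 668 and Casp4 feature 1419 was larger than the SD of either.

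Set against each other as classes, inflammatory and apoptotic caspases did not separate. By the means over 4 arrays, the median was -0.15 over the 3 inflammatory features and -0.24 over the 3 apoptotic ones, a difference of 0.09. Taken array by array, the difference was 0.24 and 0.32 on the Cy5 arrays, and -0.35 and -0.25 on the Cy3 arrays. These 4 differences had an SD of 0.34, and their sign depended on the dye orientation. The inflammatory features held both the highest and the lowest caspase mean, Casp1 and Casp4 feature 1419, and all 3 apoptotic features lay between them. When the features of a gene were averaged first, the difference was -0.27, with the inflammatory median at -0.46 and the apoptotic one at -0.18.

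The features with the most similar ratios were named by the mean absolute difference over the 4 arrays, with no statement on shared control. Closest to Casp4 feature 1419 were features of Slc22a8, an organic anion transporter (difference 0.12, mean log2 ratio -1.81 ± 0.16), of Cyp8b1, the sterol hydroxylase of cholic acid synthesis (0.13, -1.89 ± 0.19), and of Wt1, a transcription factor (0.14, -1.89 ± 0.17). The other feature of Cyp8b1 had a mean of -0.50, and that of Wt1 a mean of 0.58. Over all features with 1 symbol of another gene, the median difference from Casp4 feature 1419 was 1.52. Closest to Casp2 feature 668, the apoptotic feature whose mean ratio was largest in size, were single features of Psmc5, Cyp2c6v1 and Eif2b1. They were those of Psmc5, a proteasome subunit (0.04, -0.30 ± 0.18), of Cyp2c6v1, a cytochrome P450 (0.05, -0.28 ± 0.19), and of Eif2b1, a subunit of a translation initiation factor (0.06, -0.29 ± 0.14). The median difference was 0.64. Each gene had further features, with means from -0.30 to 0.33 for Psmc5, -0.39 to -0.21 for Cyp2c6v1 and -0.31 to -0.03 for Eif2b1 over all of them.

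Genes of the caspase pathways were taken from 9 lists that covered 59 features of 47 genes. None of these features was called in either direction, against 3.82% of all features. With the limit set at 1.5-fold, 3 of the 59 were higher and 0 lower, where 2.48% of all features were higher and 6.92% lower. In the opposite direction 0 would be higher and 3 lower, against 6.92% and 2.48% of all features. These 3 were Ctsl, Creld2 and Asns. At this limit, which 9.4% of all features passed in either direction, the caspases still had 1 feature called, Casp4 feature 1419.

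Upstream and downstream of the inflammatory caspases, 8 features of 6 genes were measured, with a median log2 ratio of -0.17. Il1r1, the signalling receptor of interleukin 1, stood at 0.58 and 0.53 on the Cy5 arrays, and at 0.43 and 0.56 on the Cy3 arrays (mean 0.52 ± 0.07). All 4 of its values were above 0, as for 11.9% of all features, and the orientations differed little. Il1rap, the partner chain of that receptor, had a mean of 0.39 ± 0.16 on feature 666 and of -0.08 ± 0.17 on feature 616. Il1b, a substrate of Casp1, followed the dye on both features, at -0.40 ± 1.12 on feature 674 and -0.33 ± 1.00 on feature 1158. Il1a (-0.26 ± 0.80) and the decoy receptor Il1r2 (-0.34 ± 1.06) did so as well. No feature carried the single symbol of a listed inflammasome sensor, of the adaptor Pycard or of gasdermin D, which were not analysed here.

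Among death receptors, ligands and adaptors, 4 genes were measured, with a median of -0.36. Tnf, the cytokine whose receptor can activate initiator caspases, stood at -0.70 and -0.79 on the Cy5 arrays, and at -0.31 and -0.19 on the Cy3 arrays (mean -0.50 ± 0.29). It was below 0 on all arrays, as were 17.6% of all features, without reaching 2-fold. The adaptor Tradd had a mean of -0.37 ± 0.83, the neurotrophin receptor Ngfr -0.35 ± 0.75, and the receptor Cd40 0.25 ± 0.14.

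In the mitochondrial branch, all 4 features of the Bcl2 family list had means between -0.24 and -0.13. The highest, at -0.13 ± 0.33, was Bag1, which binds Bcl2 and is not itself a family member. The other 3, Bcl2l1, Bcl2a1 and Bad, had a dye contrast of -0.5 or below, as did 43.2% of all features and 33.9% of the 59 pathway features. Bcl2l1, an inhibitor of cytochrome c release, stood at -0.24 ± 0.94, and Bad, which antagonises it, at -0.21 ± 0.72. Apaf1, the scaffold on which Casp9 is activated, had 3 features, with means of -0.42 ± 1.10, -0.39 ± 1.34 and 0.28 ± 0.71, each with opposite signs in the 2 orientations. The mitochondrial flavoprotein Aifm1 was below 0 on all 4 arrays, as were 17.6% of all features, with a mean of -0.33 ± 0.20. The only measured inhibitor of caspases, Birc2, had a mean of -0.42 ± 1.16 with a dye contrast of -0.998.

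Among caspase substrates, 14 features of 11 genes had means between -0.37 and 0.13 and a median of -0.25, equal to that of all features to 2 decimals. Parp2, a relative of Parp1, stood at -0.34 ± 1.15. Parp1, the DNA repair enzyme cleaved in apoptosis, stood at -0.29 ± 0.39 and -0.12 ± 0.28 on its 2 features. The kinase Map3k1 was below 0 on all arrays (-0.37 ± 0.14), as were 17.6% of all features, and the kinase Pak2 had a mean of -0.32 ± 0.23.

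In the list of endoplasmic reticulum stress genes the median was 0.20 over 9 features, and none had a dye contrast of -0.5 or below. Creld2, a chaperone-like protein of the endoplasmic reticulum, was highest at 0.68 ± 0.28, above 0 on all arrays, followed by Asns, the asparagine synthetase, at 0.62 ± 0.27, and by Trib3, a pseudokinase of the stress response, at 0.43 ± 0.56. Ddit3, the transcription factor of this response linked to apoptosis, stood at -0.16 ± 0.21. Of the 9 features, 4 were above 0 on all arrays, as were 11.9% of all features. Below 0 on all arrays, as were 17.6% of all features, were 2 of them, Calr (-0.15 ± 0.03) and Dnajb9 (-0.14 ± 0.08). Among the other cysteine proteases and their inhibitors, 6 features were measured with a median of -0.02. Ctsl, a lysosomal cathepsin, stood at 0.78 ± 0.31 on feature 772, with values of 0.84 and 0.45 on the Cy5 arrays, and 0.66 and 1.18 on the Cy3 arrays, but at -0.08 ± 0.11 on feature 941. Capn3, a calpain, stood at -0.30 ± 0.17 and Ctss, another cathepsin, at 0.12 ± 0.19. Features of p53 targets had a median of 0.03. Pcna, a replication clamp, was lowest at -0.48 ± 1.41 on feature 1630 with a dye contrast of -1.21, and the growth arrest gene Gadd45a stood at -0.43 ± 1.24 and 0.38 ± 0.20 on its 2 features.

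**Figure D4:**
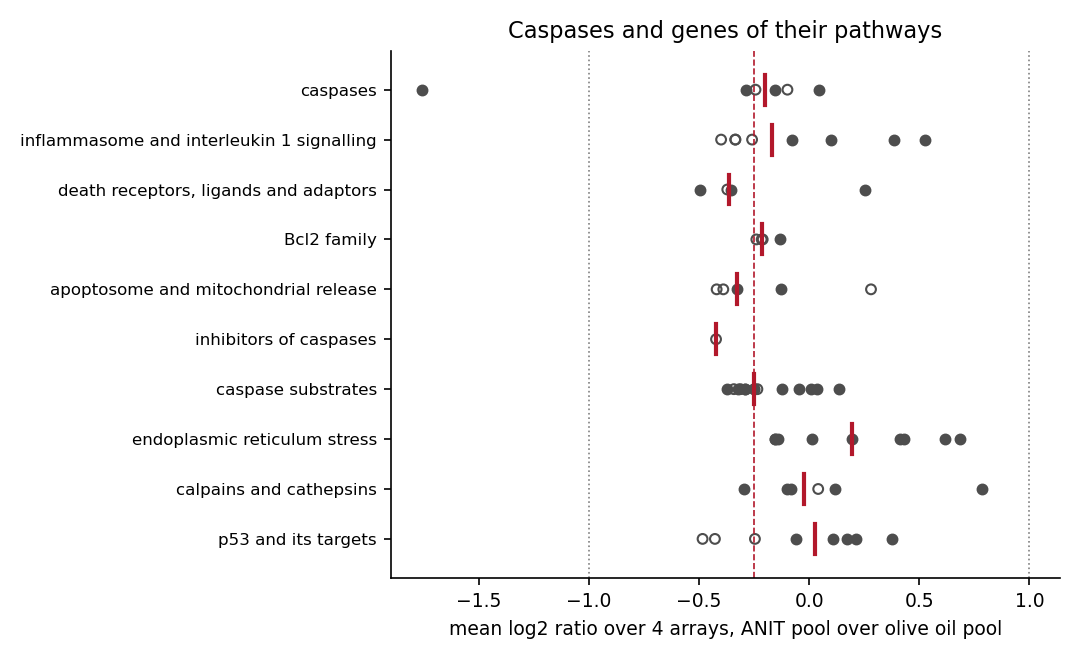
Mean log2 ratio over 4 arrays (horizontal axis) of each feature of the caspases and of the 9 pathway lists (rows); open circles have a dye contrast of -0.5 or below, red bars are list medians, and the dashed red line is the median of all features (-0.25). Dotted lines mark 2-fold. Casp4 feature 1419 at -1.76 is the only point outside them.

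Markers of the cell types that can carry caspases were sparsely covered, and their part in the Casp4 ratio was not tested. None of 8 listed markers of Kupffer cells and macrophages was measured. The neutrophil gene S100a9 had means of -0.37 ± 1.36 and 0.11 ± 0.53 on its 2 features, with values between -1.81 and 0.87 on single arrays. The cholangiocyte genes Spp1 (-0.37 ± 1.15) and Ggt1 (-0.31 ± 1.11) had dye contrasts of -0.99 and -0.96. Il2rb, a receptor chain of T and natural killer cells, was at -0.81 and -0.69 on the Cy5 arrays, and at -0.92 and -0.96 on the Cy3 arrays (mean -0.84 ± 0.12), short of 2-fold. The 5 hepatocyte features, of 4 genes, had a median of -0.07 with means between -0.49 (Serpina1 feature 1874) and 0.07 (Apoa1). Serpina1 feature 1874 had an SD of 1.49 and a dye contrast of -1.29, and Serpina1 feature 1865 stood at -0.07 ± 0.44.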

How the data were processed

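Liver RNA pools of 1 ANIT and 1 olive oil group were compared on 4 two-colour arrays, per the labels' protocols. The authors deposited 1 log ratio per feature and array, read here as log2. The sources used here do not give the scanner, the background correction and normalization, the base of the logarithm or which pool is the numerator. Ratios were used as deposited, without centring. Features were named through the platform annotation, with 1432 features carrying 1 symbol, 19 several and 485 none, and 1429 of the 1432 matched by gene ID to the RefSeq table of GRCr8. Means, SDs, dye contrasts and the 2-fold rule were computed with Python 3.11.15, numpy 2.4.6 and pandas 2.3.3, and tested on simulated data. Because RNA was pooled, no p-value is given, and the SD measures only technical spread. The number of arrays limits the precision.

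The caspases, lists and rules were chosen with earlier results of these data known. The text names every caspase feature, up to 3 features of each list with the largest absolute mean, and the 3 nearest features of another gene to the largest-ratio feature of each class. Further list members, among them Il1a, Il1r2, the second features of Il1b, Il1rap and Ctsl, Cd40, Apaf1 feature 1171, Parp1 and Ddit3, and Car2, Hao2 and Slco1a4 as genes with 2 features, were chosen after their values were seen. Alternatives were arrays centred on their medians, each dye orientation alone, 1 array fewer, natural logarithms, the opposite direction, a 1.5-fold limit and gene means. With 1 array fewer, the means of the 2 dye orientations were averaged with equal weight, so the lone array of an orientation counted more.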

Additional observations from a re-analysis of the deposited data

Results flagged for a closer look

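None of the 6 caspase features had an array that stood apart from the other 3. Ttr feature 1546, a hepatocyte marker, had 1 array far from the others: its log2 ratio was -0.54 on array 3, against -0.0028, 0.043 and -0.028 on arrays 1, 2 and 4. It was the 1 feature so found among 45 examined, which were the caspases, the list features named by the rule and the nearest features. Further features of the text, chosen after their values were seen, were not all examined. Among those left out, the lower feature of Car2 also had array 3 apart, at -3.98 against -3.50, -3.49 and -3.40 on arrays 1, 2 and 4. Chance gives about 1 in 20 only where the 4 arrays of a feature scatter around 1 value, not where they split by dye.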

How the results depend on the processing

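The call of Casp4 feature 1419 kept its side of the limit with centred arrays, where the mean was -1.59. Some settings could not have undone this call. The highest value of the feature on any array was -1.56. Each dye orientation alone and the means without any single array (-1.86 to -1.66) therefore had to pass the 2-fold limit. Reading the values as natural logarithms (-2.54 as log2) makes every ratio larger in size, and any call at 2-fold also holds at 1.5-fold. With olive oil over ANIT the ratio of Casp4 feature 1419 was 1.76, which reversed the direction and gave 1 caspase feature higher and 0 lower. Casp4 feature 1882 was then at 0.15, Casp2 feature 668 at 0.29 and the inflammatory median at 0.15. With gene means, added after seeing the data, 0 caspases were lower. Gene means gave an inflammatory median of -0.46 and a difference from the apoptotic median of -0.27. With ANIT in Cy3 alone the apoptotic median was 0.34 and the difference -0.31. Without each array the class difference lay between 0.021 and 0.16.

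Over all features, 680 were called with ANIT in Cy5 alone (667 lower), 146 with natural logarithms (33 higher, 113 lower) and 182 at 1.5-fold (48 higher, 134 lower). The opposite direction gave 59 higher and 15 lower. Centring, which moved the median of all features by 0.17, gave 22 higher and 48 lower, so that 68.6% of calls were lower, against 79.7% as deposited. Without each array 72 to 74 features were called. No paired analysis was possible because there is 1 pool per condition, and each value already is a ratio within an array. Signal over background was not at hand, so dim spots could not be told from bright ones.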

Other observations

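Of the genes with 2 features, the largest differences were those of Car2, Wt1, Hao2, Slco1a4, Casp4 and Cyp8b1, which were chosen after their values were seen. In each the lower feature was called by the 2-fold rule and the higher one was not. The higher feature had a mean of -0.03 for Car2, 0.58 for Wt1, 0.18 for Hao2, -0.10 for Slco1a4 and -0.50 for Cyp8b1. Leaving out Car2, whose lower feature stood at -3.59, the lower features had means between -1.95 and -1.76, and differed from Casp4 feature 1419 by 0.13 to 0.21 log2 units on average over the 4 arrays. Over all features, 11 lay within 0.3 of Casp4 feature 1419 by this measure, and they carried 11 different gene symbols.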
